A study of Mus musculus with 9 samples.

Results

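A group of 8 genes of prostaglandin synthesis and signaling was described in neonatal rat ventricular myocytes (NRVMs) that overexpressed LacZ, Nrf1, or Nrf2. The members were *Pla2g4a*, *Ptgs1*, *Ptgs2*, *Ptges*, *Ptgis*, *Ptger2*, *Ptger4*, and *Ptgfr*, out of 15122 genes with a row in at least 1 of the deposited tables. *Ptgs1* was picked because its group mean was lower with Nrf1 and higher with Nrf2 than with LacZ, and the other members were named as genes of the same pathway. Since the list was drawn up with these results known, the values of all 8 members are given as a description, with no test.

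The myocytes came from newborn Sprague-Dawley rats and were cultured for 48 h before infection. Separate adenoviruses were used at an MOI of 50, carrying LacZ (the control), mouse *Nrf1* (gene symbol *Nfe2l1*), or mouse *Nrf2* (*Nfe2l2*). The CMV promoter that drove them is active in any infected cell, and all groups, controls included, received virus. RNA was collected 48 h after infection and sequenced in 9 libraries, 3 per group. The labels do not say whether the libraries of a group came from separate cultures, so their spread may be technical.

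Prostaglandins are lipid signals made from arachidonic acid, a fatty acid that phospholipases cut out of membranes. The cyclooxygenases turn it into prostaglandin H2, which terminal synthases convert into prostaglandin E2, prostacyclin, prostaglandin F2α, and other products. These leave the cell and act on G protein-coupled receptors on the same or neighboring cells. In the heart they are known for effects on vessel tone, inflammation, fibroblasts, and myocyte growth.

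The deposited tables hold group means of size-factor-normalized read counts. Because each mean is a sum of whole reads weighted by 3 library size factors, the reads of every library could be solved for, and were obtained in all 9 libraries for 15095 of the 15122 genes. Libraries are called A, B, and C by falling depth within a group, since the tables do not tie them to replicate numbers. Depth ranged from 7874461 to 11905658 reads per library (8533201 to 10275000 with Nrf1, 10149749 or more with Nrf2, 9347199 or fewer with LacZ). Values per library below are normalized reads, set to a common scale over all 9 libraries. Fold changes are ratios of the group means that the authors gave for a pair of groups. Those of the tested pathway genes, and those used in calls, instead come from limma, described below. Both kinds can differ slightly from the ratio of the values per library. Levels are compared only within a gene, as gene lengths were not used. Libraries of 1 group resembled each other more (r between 0.992 and 0.996 over 8392 genes) than libraries of different groups (0.916 to 0.957), which describes these libraries and is no test. Reads of *Nfe2l2* averaged 74612 ± 6131 normalized reads (SD, n = 3) with Nrf2 against 3456 ± 49.5 with LacZ and 2860 ± 40.3 with Nrf1. Reads from the mouse transgene and from the rat gene could not be told apart there, and *Nfe2l1* was not analysed here. The Nrf2 target *Nqo1* averaged 823.3 ± 102.0 with LacZ, 1131 ± 20.5 with Nrf1, and 5542 ± 198.9 with Nrf2. *Hmox1*, which the authors name as a known target of Nrf1, averaged 1118 ± 43.7, 2747 ± 29.3, and 2528 ± 18.7 in the same order.

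*Ptgs1* and *Ptgs2*, the cyclooxygenases, were both lowest with Nrf1 and highest with Nrf2. *Ptgs1* encodes COX-1, the form that most tissues express at rest. Its level was 680.6, 655.7, and 655.7 normalized reads in the LacZ libraries, 256.7, 206.8, and 212.7 in the Nrf1 libraries, and 1097.3, 1080.8, and 1124.8 in the Nrf2 libraries. The 3 groups did not overlap, with every Nrf1 library below and every Nrf2 library above every LacZ library. The group mean was 2.95-fold lower with Nrf1 than with LacZ (211.9 against 625.2, log2 fold change -1.56), and 1.66-fold higher with Nrf2 (1108 against 667.7, 0.73). Between the transgenes it was 4.87-fold higher with Nrf2 than with Nrf1 (2.28). When each library was left out in turn, these log2 values ranged from -1.67 to -1.5, from 0.71 to 0.75, and from 2.22 to 2.39. A mean more than 1.5-fold lower with Nrf1 and more than 1.5-fold higher with Nrf2 was found in 32 of 8748 genes with a group mean of at least 100 normalized reads (0.366%), and in 295 of 14657 genes of any level (2.01%). *Ptgs1* is 1 of the 32 because it was picked for this pattern.

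*Ptgs2* encodes COX-2, the form that growth factors and inflammatory signals induce. It stood at 295.6, 270.6, and 273.9 normalized reads with LacZ, 184.7, 180.5, and 156.7 with Nrf1, and 338.1, 321.2, and 348.9 with Nrf2. The groups again did not overlap and took the same order as for *Ptgs1*, over a narrower range. The mean was 1.61-fold lower with Nrf1 than with LacZ (log2 fold change -0.69), 1.2-fold higher with Nrf2 than with LacZ (0.26), and 1.93-fold higher with Nrf2 than with Nrf1 (0.95). The balance of the cyclooxygenase transcripts differed between the groups. There were 2.30, 2.42, and 2.39 *Ptgs1* reads per *Ptgs2* read in the LacZ libraries, 1.39, 1.15, and 1.36 in the Nrf1 libraries, and 3.25, 3.37, and 3.22 in the Nrf2 libraries. These ratios do not depend on scaling between libraries, and they count reads, not molecules.

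**Figure D1:**
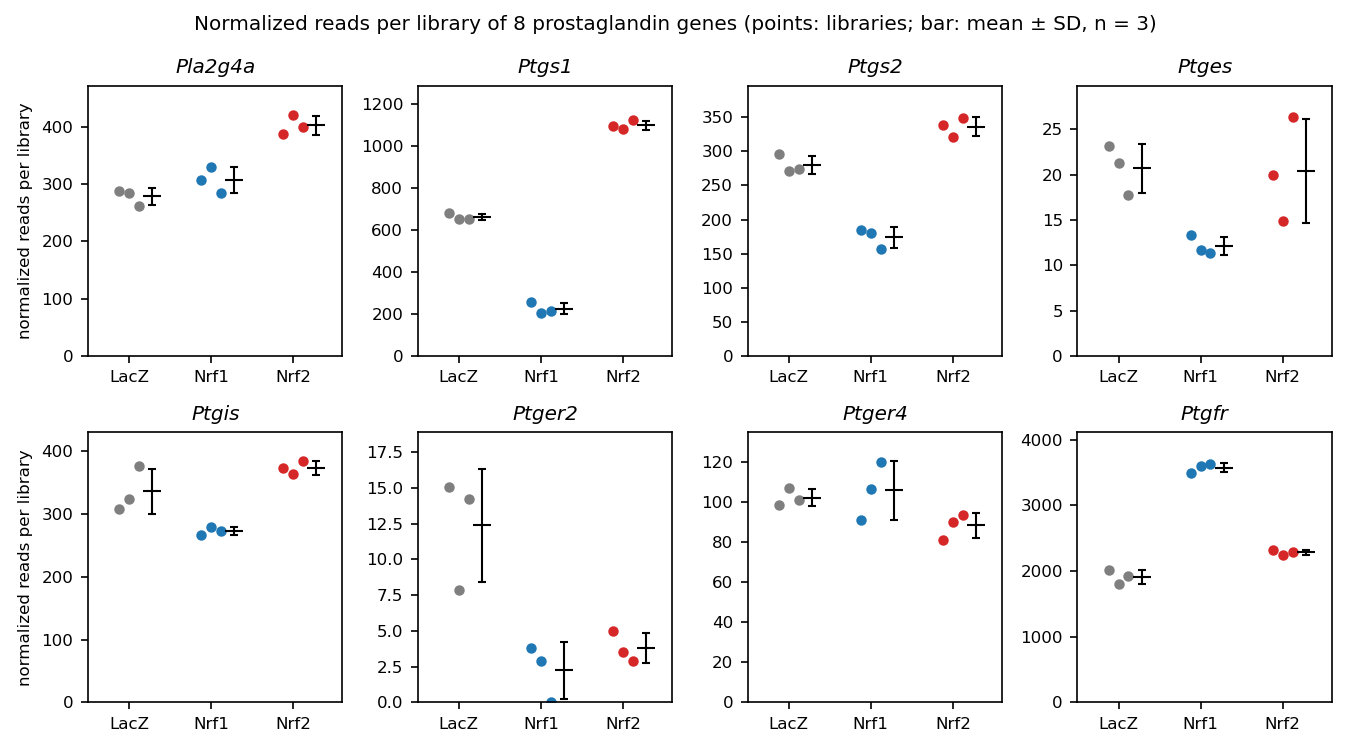
Normalized reads (linear y axes that start at 0) of the 8 members in each of the 9 libraries, 1 panel per gene; points are libraries, and bars mark group means with SD (n = 3). For *Ptgs1* the Nrf1 libraries sit between 206.8 and 256.7 and the Nrf2 libraries between 1080.8 and 1124.8, on either side of LacZ, whereas *Ptgfr* is highest with Nrf1.

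Markers of other cell types differed between the groups in the same libraries. Cultures of NRVMs hold some non-myocytes, and in bulk RNA fewer cells of a type and less RNA per cell cannot be told apart. Of the myocyte markers, *Tnnt2*, cardiac troponin T, averaged 34036, 29390, and 39441 normalized reads with LacZ, Nrf1, and Nrf2. Relative to the LacZ mean, the summed level of 8 cardiomyocyte markers was 0.79 in every Nrf1 library and 1.02 to 1.05 in the Nrf2 libraries. The sum of 8 fibroblast markers was 0.25 to 0.28 with Nrf1 and 0.52 to 0.56 with Nrf2, and that of 8 leukocyte and macrophage markers was 0.50 to 0.52 and 0.47 to 0.52. Endothelial markers (8 genes) came to 0.71 to 0.78 and 0.69 to 0.85, smooth muscle and pericyte markers (6 genes) to 0.62 to 0.65 and 0.78 to 0.84, and mesothelial markers (3 listed of 5) to 0.55 to 0.66 and 1.09 to 1.16. Gene by gene, the 8 cardiomyocyte markers stood at 0.48 to 1.78 of their LacZ means with Nrf1 (median 0.83). Endothelial markers stood at 0.49 to 1.28 with Nrf1 (median 0.54) and at 0.44 to 1.75 with Nrf2 (median 0.63). Those of smooth muscle and pericytes stood at 0.27 to 0.92 (median 0.45) and 0.46 to 0.96 (median 0.79). Leukocyte and macrophage markers stood at 0.27 to 1.35 (median 0.33) and 0.29 to 1.06 (median 0.42). For endothelial, smooth muscle, and leukocyte markers the median gene lay below the sum with Nrf1. Some of the sums rest on 1 gene. *Col1a1* made up 92.7% of the fibroblast sum with LacZ, and gene by gene the 8 fibroblast markers stood at 0.19 to 0.53 of their LacZ means with Nrf1 (median 0.28) and at 0.28 to 0.76 with Nrf2 (median 0.51). *Upk1b* made up 78.0% of the mesothelial sum, and it alone was above LacZ with Nrf2 (281.7 against 216.2 normalized reads), whereas *Msln* (11.5 against 19.3) and *Wt1* (21.5 against 41.6) were called lower.

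On the same scale *Ptgs1* was at 0.31 to 0.39 with Nrf1 and at 1.63 to 1.69 with Nrf2, and *Ptgs2* at 0.56 to 0.66 and 1.15 to 1.25. Both were thus lower with Nrf1, as were the marker sums of all 6 cell types. With Nrf2 both were higher, while fibroblast, endothelial, smooth muscle, and leukocyte marker sums were lower. The mesothelial sum was above LacZ with Nrf2 (1.09 to 1.16), and the cardiomyocyte sum (1.02 to 1.05) lay within the LacZ range (0.94 to 1.07). With Nrf1, 8 of 8 fibroblast markers, 5 of 8 endothelial, 4 of 6 smooth muscle and pericyte, 6 of 8 leukocyte, and 3 of 3 mesothelial markers were called lower (adjusted p under 0.05 and a fold change above 1.5 in limma voom, described below with the pathway genes), none of these lists had a marker called higher, and of the cardiomyocyte markers 1 was higher and 3 were lower. With Nrf2, the lower calls were 6, 5, 1, 6, and 2 in the same order, 1 endothelial marker was higher, and the cardiomyocyte markers stood at 0.83 to 1.35 of their LacZ means without a call. No listed marker was at 0 in all libraries. The part of these markers' cell types in the member values was not tested.

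**Figure D2:**
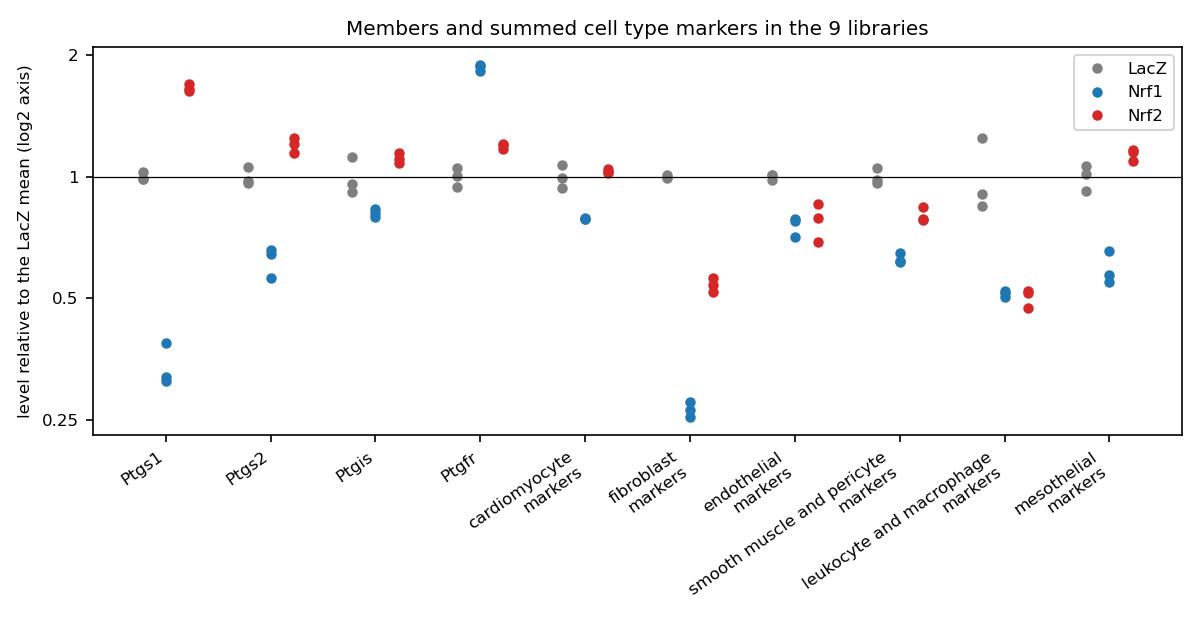
Summed normalized reads of each marker list, and levels of *Ptgs1*, *Ptgs2*, *Ptgis*, and *Ptgfr*, in each library relative to the LacZ mean (axis in multiples of that mean). Fibroblast markers lie at 0.25 to 0.28 with Nrf1 and at 0.52 to 0.56 with Nrf2, whereas *Ptgs1* lies at 0.31 to 0.39 and at 1.63 to 1.69.

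*Pla2g4a* encodes cytosolic phospholipase A2α, which releases arachidonic acid ahead of the cyclooxygenases. It was measured at 288.5, 284.1, and 262.0 normalized reads with LacZ, 306.9, 328.8, and 283.6 with Nrf1, and 387.9, 420.1, and 399.6 with Nrf2. The Nrf2 libraries were above all others, while the Nrf1 and LacZ libraries overlapped. The mean was 1.45-fold higher with Nrf2 than with LacZ (log2 fold change 0.53), just short of the 1.5-fold cutoff that the study used, and 1.31-fold higher than with Nrf1 (0.39).

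The terminal synthases *Ptges* and *Ptgis* took different shapes. *Ptges*, the inducible microsomal prostaglandin E synthase, was sparse, with 23.1, 21.3, and 17.8 normalized reads with LacZ, 13.3, 11.7, and 11.4 with Nrf1, and 19.9, 14.9, and 26.3 with Nrf2. All Nrf1 libraries were below all others, and the Nrf2 libraries spread around those of LacZ. The summed reads were 57 with LacZ (95% exact Poisson interval 43.2 to 73.9), 36 with Nrf1 (25.2 to 49.8), and 68 with Nrf2 (52.8 to 86.2), intervals that cover counting error only. The mean was 1.71-fold lower with Nrf1 than with LacZ and 1.67-fold higher with Nrf2 than with Nrf1, and the latter log2 fold change of 0.74 dropped to 0.51, under the cutoff, without Nrf2 library C.

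*Ptgis*, the prostacyclin synthase, varied little between the groups. It had 308.6, 323.4, and 377.0 normalized reads with LacZ, 267.1, 280.0, and 273.4 with Nrf1, and 373.0, 363.2, and 385.0 with Nrf2. The Nrf1 libraries lay below all others, and the Nrf2 libraries overlapped with LacZ library C. The mean was 1.23-fold lower with Nrf1 than with LacZ, 1.11-fold higher with Nrf2 than with LacZ, and 1.36-fold higher with Nrf2 than with Nrf1, all within the cutoff.

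Among the receptors, *Ptgfr* was highest with Nrf1, where the cyclooxygenase genes were lowest. It encodes FP, the receptor for prostaglandin F2α, which is known to drive hypertrophic growth of cultured cardiomyocytes. Its level was 2013.6, 1801.0, and 1923.1 normalized reads with LacZ, 3495.8, 3597.2, and 3625.7 with Nrf1, and 2311.5, 2244.8, and 2287.6 with Nrf2. No groups overlapped, with LacZ lowest, Nrf2 between, and Nrf1 highest. The mean was 1.86-fold higher with Nrf1 than with LacZ (log2 fold change 0.90), 1.19-fold higher with Nrf2 than with LacZ (0.26), and 1.57-fold lower with Nrf2 than with Nrf1 (-0.65). *Ptgfr* was the only member whose mean was more than 1.5-fold higher with Nrf1 than with LacZ.

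*Ptger4* and *Ptger2* encode EP4 and EP2, the prostaglandin E2 receptors that raise cyclic AMP. *Ptger4* was the steadiest member, with 98.5, 106.7, and 100.8 normalized reads with LacZ, 90.9, 106.3, and 120.1 with Nrf1, and 81.2, 90.1, and 93.6 with Nrf2. Its Nrf1 libraries overlapped with both other groups. The Nrf2 libraries lay below those of LacZ by a mean of 1.15-fold.

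*Ptger2* was close to the detection limit. It had 15, 7, and 12 reads in the LacZ libraries, 4, 3, and 0 in the Nrf1 libraries, and 6, 4, and 3 in the Nrf2 libraries, before normalization. Every LacZ library held more of its reads than any library of the other groups. The sums were 34 (95% exact Poisson interval 23.5 to 47.5), 7 (2.8 to 14.4), and 13 (6.9 to 22.2). The mean was 5.54-fold lower with Nrf1 and 3.26-fold lower with Nrf2 than with LacZ. The first value, a log2 fold change of -2.47, was -3.08 without Nrf1 library A and -1.89 without Nrf1 library C, and the second ranged from -1.95 to -1.54 on the log2 scale with each library left out in turn. Nrf1 and Nrf2 overlapped, and their log2 fold change of 0.76 became 0.17 without Nrf1 library C, the one with 0 reads, and 0.52 without Nrf2 library A.

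Over all 8 members, 1 mean was more than 1.5-fold higher and 4 were more than 1.5-fold lower with Nrf1 than with LacZ. Of all listed genes, 15.1% passed the cutoff upward and 24.3% downward (11.6% and 11.9% of genes with a mean of at least 100). With Nrf2 against LacZ, 1 member was higher (*Ptgs1*) and 1 lower (*Ptger2*), beside 15.6% and 15.5% of all listed genes (7.68% and 6.65% of those with a mean of at least 100). With Nrf2 against Nrf1, 4 members were higher and 1 lower, beside 20.1% and 8.72% (7.5% and 4.24%). The median log2 fold change over the members was -0.50, 0.20, and 0.59 in these comparisons. Genes with a mean of at least 100 had medians of 0.05, 0.01, and -0.03. Since these contrasts chose the members, the counts are a description.

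The study's filter on low genes asked for over 1 CPM (reads scaled to a common library total) in 3 or more libraries, for each comparison. Here the same limits were applied once over all 9 libraries, so a gene could pass through the group outside a comparison. All members but *Ptger2* passed. Of these 7, with Nrf1 against LacZ, 1 was higher and 4 were lower in every library, beside 35.9% and 33.7% of the 11597 genes that passed. For Nrf2 against LacZ the counts were 4 and 1, beside 31.5% and 29.8%, and for Nrf2 against Nrf1 they were 5 and 1, beside 31.4% and 31.5%. Non-overlap of the libraries was thus common among all genes here.

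**Figure D3:**
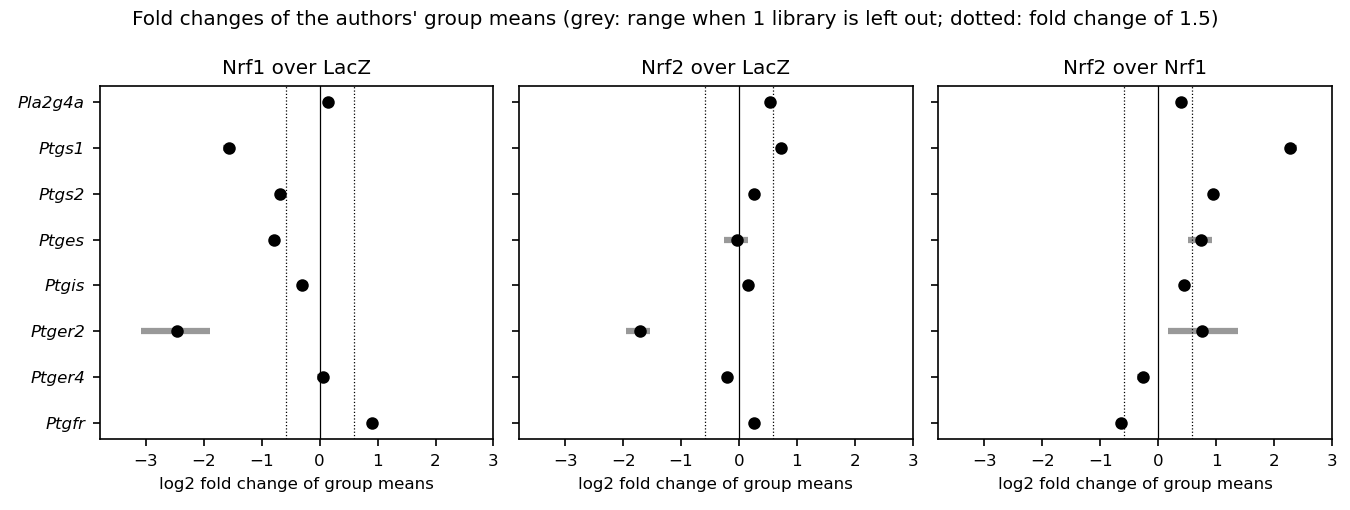
Log2 fold change of the group means of the 8 members in the 3 comparisons (x axis in log2 units; bars through the points span the values with each library left out in turn; dotted lines mark a fold change of 1.5). *Ptgs1* spans from -1.56 for Nrf1 over LacZ to 2.28 for Nrf2 over Nrf1, and *Ptger2* has the widest leave-one-out spans.

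The rest of the pathway was followed in 47 further genes, of which 44 were listed and 31 passed the CPM filter. They were tested with limma voom over all 9 libraries, with Benjamini-Hochberg adjustment over 11597 genes, and called at an adjusted p under 0.05 and a fold change above 1.5. With Nrf1 against LacZ 3 were upregulated and 6 downregulated, beside 11.1% and 16.8% of all genes tested. With Nrf2 against LacZ the counts were 7 and 2, beside 8.99% and 9.78%, and with Nrf2 against Nrf1 they were 8 and 2, beside 11.2% and 4.23%. Without the fold cutoff the counts were 9 and 8 for Nrf1 over LacZ (33.9% and 32.7% of all genes), 13 and 4 for Nrf2 over LacZ (28.9% and 27.5%), and 12 and 7 for Nrf2 over Nrf1 (27.9% and 27.1%). The median log2 fold changes of the tested pathway genes were 0.01, 0.11, and 0.21, against -0.00, -0.01, and 0.00 over all genes tested.

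*Ptgr1* and *Abcc4*, genes that break down and export prostaglandins, held the largest log2 fold changes of Nrf2 over LacZ among the tested pathway genes with a group mean of at least 100. *Ptgr1*, a reductase that inactivates 15-keto prostaglandins and leukotriene B4, had 653.4, 554.7, and 648.5 normalized reads with LacZ, 625.1, 628.3, and 637.1 with Nrf1, and 4200.3, 4403.0, and 4250.7 with Nrf2. The Nrf2 libraries stood far above the rest, and those of Nrf1 fell within the LacZ range. Its limma log2 fold change was 2.79 ± 0.05 with Nrf2 over LacZ (SE, adjusted p = 1.34e-18) and 0.02 ± 0.06 with Nrf1 over LacZ (adjusted p = 0.792), and the direct contrast of Nrf2 over Nrf1 gave 2.77 (adjusted p = 1.77e-18). *Abcc4*, which encodes an efflux pump for prostaglandins and cyclic nucleotides, rose from 409.4 ± 28.3 normalized reads with LacZ to 1159 ± 57.8 with Nrf2 (SD, n = 3; 2.82-fold, limma adjusted p = 5.71e-13). It reached 588.6 ± 41.1 with Nrf1, within the cutoff at 1.43-fold, and was 1.97-fold higher with Nrf2 than with Nrf1 (adjusted p = 5.36e-11).

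*Slco2a1* encodes the transporter that takes prostaglandins back up. It averaged 97.6 ± 5.96, 50 ± 4.91, and 84 ± 14.2 normalized reads with LacZ, Nrf1, and Nrf2, and fell with Nrf1 (log2 fold change -0.96, limma adjusted p = 2.91e-05), with 0.72 for Nrf2 over Nrf1 (adjusted p = 6.87e-04). *Zadh2*, prostaglandin reductase 3, averaged 214.8 ± 12.4, 137.9 ± 19.7, and 223.1 ± 19.1. It was 1.59-fold lower with Nrf1 than with LacZ (limma adjusted p = 2.76e-05), a call that was lost without Nrf1 library A, and 1.64-fold higher with Nrf2 than with Nrf1 (adjusted p = 1.23e-05). *Cbr1*, a carbonyl reductase that acts on prostaglandin E2, was called higher with Nrf2 over LacZ and over Nrf1 on only 16, 33, and 85 summed reads. It passed the CPM filter only through the Nrf2 libraries, where it was highest, so the filter favored these calls. It has close paralogs, and whether reads were shared with them was not tested. *Ptgr2*, another reductase, averaged 1138, 1412, and 1368 normalized reads, and no call was made for it or for *Hpgd*, the dehydrogenase that starts prostaglandin breakdown (58.7, 71.1, and 51.2).

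Of the other genes of arachidonic acid release, 8 were tested. *Pla2g6*, a calcium-independent phospholipase A2, averaged 217.6 ± 9.71, 497.7 ± 29.8, and 304.9 ± 2.86 normalized reads with LacZ, Nrf1, and Nrf2. It rose 2.27-fold with Nrf1 (limma adjusted p = 5.59e-11), and was 1.62-fold lower with Nrf2 than with Nrf1 (adjusted p = 2.17e-08). The secreted phospholipase gene *Pla2g5* rose 2.09-fold with Nrf1 and 1.62-fold with Nrf2 over LacZ (adjusted p = 2.39e-07 and 7.29e-05), and *Pla2g12a* rose 1.88-fold with Nrf2 (adjusted p = 3.37e-06). *Pla2g4b*, *Pla2g16*, *Abhd6*, and *Abhd12* had a group mean of at least 100 and were not called in any comparison.

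Of the 6 other synthases, 1 was called lower with Nrf1 than with LacZ and 2 were called higher with Nrf2 than with Nrf1. *Tbxas1*, the thromboxane synthase and a gene that macrophages express, averaged 35.1 ± 7.33, 16 ± 1.99, and 28.8 ± 2.09 normalized reads with LacZ, Nrf1, and Nrf2. It fell 2.14-fold with Nrf1 (limma adjusted p = 8.46e-04) and was 1.79-fold higher with Nrf2 than with Nrf1 (adjusted p = 0.00833), and it was not called with Nrf2 over LacZ. The leukocyte and macrophage marker sum was 0.50 to 0.52 of LacZ with Nrf1 and 0.47 to 0.52 with Nrf2, and its part in the *Tbxas1* values was not tested. *Ptgds*, a prostaglandin D synthase, was 1.58-fold higher with Nrf2 than with Nrf1 (adjusted p = 0.00279). *Ptges2* and *Ptges3*, the constitutive prostaglandin E synthases, averaged 365.0, 366.8, and 418.6, and 2659, 3248, and 2955 normalized reads, and neither was called.

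Among the other receptors, *Tbxa2r*, the thromboxane receptor, averaged 75.2 ± 5.93, 48.2 ± 3.03, and 54.1 ± 1.45 normalized reads and was called lower with Nrf1 than with LacZ (1.57-fold, limma adjusted p = 6.95e-04). *Ptgfrn*, which encodes a membrane protein that binds the FP receptor and lowers its ligand binding, averaged 1686 ± 18.1, 1094 ± 24.2, and 1354 ± 43.2. It fell 1.55-fold with Nrf1 (adjusted p = 7e-11), so that *Ptgfr* was highest and *Ptgfrn* lowest in the same libraries. *Ptger1* and *Ptger3*, the other prostaglandin E2 receptors, were not called, with *Ptger3* at 143.7, 191.3, and 139.0 normalized reads. *Ptgdr2*, a prostaglandin D2 receptor, did not pass the CPM filter and has no test. It had 1, 0, and 0 reads in the LacZ libraries, 0 in all Nrf1 libraries, and 8, 5, and 12 in the Nrf2 libraries.

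The lipoxygenase branch competes for arachidonic acid and makes leukotrienes. *Lta4h*, which makes leukotriene B4, averaged 1199 ± 44.4, 2331 ± 22.4, and 1337 ± 43.4 normalized reads with LacZ, Nrf1, and Nrf2. It rose 1.94-fold with Nrf1 (limma adjusted p = 1.6e-13) and was 1.74-fold lower with Nrf2 than with Nrf1 (adjusted p = 2.43e-12). *Mgst2*, a glutathione transferase with leukotriene C4 synthase activity, rose 2.49-fold with Nrf2 (adjusted p = 1.28e-08) and had a ratio of 1.01 with Nrf1 (adjusted p = 0.936). *Alox5*, 5-lipoxygenase, which leukocytes express, fell 1.97-fold with Nrf1 and 1.85-fold with Nrf2 (adjusted p = 2.62e-05 and 5.72e-05). *Alox12* and *Alox15* were called higher and lower with Nrf2 than with LacZ on at most 49 summed reads per group. Both calls were lost in some fits that left out 1 library, as listed with the alternatives.

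**Figure D4:**
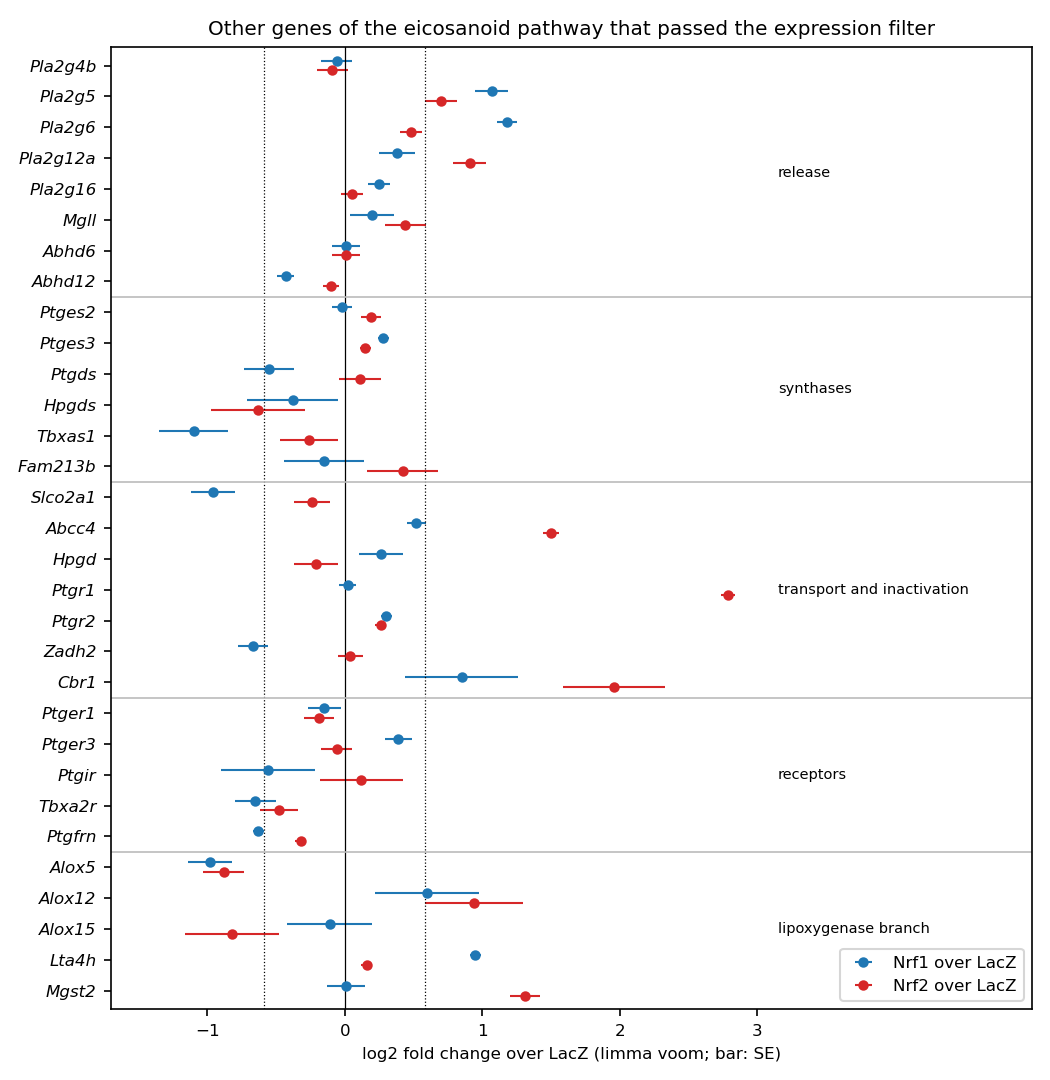
Limma log2 fold changes (x axis, with SE) of the tested pathway genes other than the members, grouped by role. The comparisons drawn are Nrf1 over LacZ and Nrf2 over LacZ. *Ptgr1* lies at 2.79 for Nrf2 over LacZ and at 0.02 for Nrf1 over LacZ. *Pla2g6* and *Lta4h* lie farther to the right for Nrf1 over LacZ than for Nrf2 over LacZ.

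Of 8842 genes ranked by their distance to *Ptgs1* in the 3 log2 fold changes, taken from the 9 libraries of 3 groups, the 5 nearest were *Tfec*, *Gfpt2*, *Nr2f1*, *Pde5a*, and *Xdh*. *Tfec*, a transcription factor of the MiT family, was at a distance of 0.35 log2 units and averaged 82.4, 26.3, and 112.4 normalized reads with LacZ, Nrf1, and Nrf2. *Gfpt2*, an enzyme of hexosamine synthesis, was at 0.37 with 442.0, 162.5, and 643.5. *Nr2f1*, a nuclear receptor, was at 0.45, *Pde5a*, the cyclic GMP phosphodiesterase, at 0.46, and *Xdh*, xanthine dehydrogenase, at 0.50. All were lowest with Nrf1 and highest with Nrf2 by the way they were picked, and nothing further was tested on them.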

How the data were processed

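The authors sequenced polyadenylated RNA of 9 NRVM samples (3 each for LacZ, Nrf1, and Nrf2) as 75-bp reads with stranded libraries. The authors' methods and processing notes name FastQC 0.11.4 for read quality, HISAT2 2.0.4 for alignment to the rat genome Rnor_6.0, SAMtools 0.1.18 for the removal of duplicates, featureCounts 1.6.0 for reads per gene, and the authors' edgeR 3.20.5 for their own tests. Removing duplicates of single-end reads can lower the counts of highly expressed genes. The labels give the organism as mouse although they describe rat cells. The signal columns used are the authors' deposited group means of normalized reads, 2 groups per table in 3 tables. The fold changes and p-values that the authors deposited beside them were not used.

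Each group mean was solved for whole reads in 3 libraries from the 2 tables that hold the group. For genes with a mean of at most 60, each table alone gave the same reads in 5174 of 5174 LacZ, 5150 of 5150 Nrf1, and 5319 of 5319 Nrf2 means. Of the 48 member means, 42 had 1 solution from a single table, and all 42 were the same. The method was tested on simulated data, where 15095 of 15095 genes were resolved rightly. For Nrf1 over LacZ, 191 of 200 genes changed by 1 log2 unit were called among 11552 tested, with 2 of 11352 unchanged genes called. The simulation gave all genes the same spread beyond counting error, and the 200 changed genes included none with very few reads. These rates need not hold for the real data, where many more genes were called. Symbols written as dates (26 rows in each table with LacZ) name no gene. Resolved reads were scaled by median-of-ratios factors and fitted with limma 3.58.1 (voom, prior count 0.5, R 4.3.3) in all groups together, for genes above 1 CPM in at least 3 libraries. The plan chose limma over a count model because the deposited columns are means, although the fit itself used the solved whole reads. P-values measure only the spread between these libraries. Named were all members, pathway genes called or with a group mean of at least 100, and the 5 genes nearest to *Ptgs1*. *Hpgd*, *Ptgdr2*, and the markers *Tnnt2*, *Col1a1*, *Upk1b*, *Msln*, and *Wt1* were named after their values were seen. Members and lists were chosen with earlier results of these data known. A planned look at promoter and protein sequences was not run, as no rat sequence was used here.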

Additional observations from a re-analysis of the deposited data

How the results depend on the processing

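No paired analysis was possible because the libraries solved from the group means carry no replicate numbers, so no replicate block could be fitted. Of 216 member values under other settings, 215 moved by less than the spread between libraries and 1 moved by more. Most of these settings left out 1 library or used the same reads again, so small moves were built in and the count is no test. *Ptger2* for Nrf2 over Nrf1 counted among the 215 although it ranged from 0.17 to 1.37, since its spread was 1.74. No value past the 1.5-fold cutoff changed sign. Values near 0 did: *Ptges* for Nrf2 over LacZ went from -0.03 to 0.16 without Nrf2 library B and 0.06 without LacZ library A, and *Ptger4* for Nrf1 over LacZ went from 0.05 to -0.05 without Nrf1 library C, -0.01 scaled to total, and -0.00 when re-centred. The one that moved by more was *Ptgs1* for Nrf2 over LacZ, at 0.65 with means scaled to their total. With a fold cutoff of 2, the members past it were 0 higher and 2 lower for Nrf1 over LacZ. For Nrf2 over LacZ they were 0 higher and only *Ptger2* lower, and for Nrf2 over Nrf1 1 higher and 0 lower. Of the pathway genes, with no fold cutoff 9 were higher for Nrf1 over LacZ, 13 higher and 4 lower for Nrf2 over LacZ, and 7 lower for Nrf2 over Nrf1. With a cutoff of 2, *Pla2g5* (2.09-fold) and *Pla2g6* (2.27-fold) were higher and 1 gene was lower for Nrf1 over LacZ. The counts were 4 higher and 0 lower for Nrf2 over LacZ, and 3 higher and 0 lower for Nrf2 over Nrf1. Leaving out 1 library gave 1 to 2 lower calls for Nrf2 over LacZ. *Alox12* lost its call in 4 of 14 alternatives (without LacZ library A or B, or Nrf2 library A or C). *Alox15* lost it in 7 of 14, of which 6 left out a library (any LacZ library, Nrf1 library A, Nrf2 library B or C) and 1 had no filter on low counts. *Zadh2* lost its call for Nrf1 over LacZ in 1 of 14, and the other calls of pathway genes held in all 14. Over all genes, with no cutoff 3930 were higher and 3787 lower for Nrf1 over LacZ, 3355 and 3188 for Nrf2 over LacZ, and 3233 and 3148 for Nrf2 over Nrf1, and with a cutoff of 2 the counts were 470 and 1089, 505 and 456, and 647 and 131. The shifts under other cutoffs follow from the cutoffs, and the cause of the others was not tested. *Ptges*, *Ptger2*, *Cbr1*, and the lipoxygenase genes with few reads are limited by depth.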
